A study of Mus musculus with 8 samples.

Results

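The OAS and OASL family was followed in tumour endothelial cells (ECs) through its 5 members Oas1a, Oas2, Oas3, Oasl1 and Oasl2, which were taken by name from the 20408 genes of the single-cell tables. They were read in the 7159 of 8204 sorted cells that carried at least 1 UMI (unique molecular identifier, a counted transcript) of Pecam1, the gene of the sorting marker CD31. There were 8 libraries, 2 in each of 4 groups, and the methods name 2 mice for each group. Spontaneous tumours arose in female MMTV-PyMT mice, which express the polyoma middle T oncogene in the mammary epithelium under the MMTV promoter. Implanted tumours grew from cells of MMTV-PyMT tumour nodules that had been kept briefly in culture and were then placed with Matrigel into the mammary fat pads of FVB females, so both models carry the same oncogene in their tumour cells while the implanted hosts are not described as carrying it. Each tumour was injected with PBS or with cGAMP, a cyclic dinucleotide that activates the sensor STING, and was taken 3 h later. Live CD45-, CD31+ cells were sorted. All mice are labelled as adult. The labels give the strain c57bl/6 for every library whereas the methods name FVB mice, so the strain is not settled.

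OAS proteins are cytosolic sensors of double-stranded RNA. On binding it, OAS1, OAS2 and OAS3 join ATP molecules into short oligoadenylates (2-5A), a messenger of the antiviral response. Of the OAS-like proteins of the mouse, OASL1 lacks this enzymatic activity and is known to limit translation of the mRNA of the transcription factor IRF7, whereas OASL2 keeps the activity. The genes are classical targets of type I interferon, whose receptor signals to a DNA element called the ISRE.

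All 5 members lie on chromosome 5 of the mouse (build GRCm38, GENCODE vM21), where the Oasl pair and the Oas genes form separate groups. Oasl2 (114896936 to 114912234) and Oasl1 (114923240 to 114937915) are neighbours on the plus strand. Oas2 (120730333 to 120749853), Oas3 (120753098 to 120777661) and Oas1a (120896256 to 120907521) lie on the minus strand, in a stretch of 191 kb that also holds 7 paralogues of Oas1a. All 5 are annotated as protein coding.

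The promoters are shown because the members rose together after cGAMP, and because they differ in the letters of the interferon element. The RefSeq windows (GRCm38.p6) reach from 250 bases before the start site to 50 after it, and 4 of the 5 members had one, with Oas2 missing. The capitals mark each match to the ISRE core (GAAA, any 2 bases, GAAA), searched on both strands.
Oas1a promoter, chr5:120907476-120907775, minus strand: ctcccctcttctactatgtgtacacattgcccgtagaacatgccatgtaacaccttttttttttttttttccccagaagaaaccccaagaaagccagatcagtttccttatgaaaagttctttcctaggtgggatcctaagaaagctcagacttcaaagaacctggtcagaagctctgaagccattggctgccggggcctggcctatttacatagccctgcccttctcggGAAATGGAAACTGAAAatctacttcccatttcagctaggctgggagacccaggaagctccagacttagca
Oas1g promoter, chr5:120887564-120887863, minus strand: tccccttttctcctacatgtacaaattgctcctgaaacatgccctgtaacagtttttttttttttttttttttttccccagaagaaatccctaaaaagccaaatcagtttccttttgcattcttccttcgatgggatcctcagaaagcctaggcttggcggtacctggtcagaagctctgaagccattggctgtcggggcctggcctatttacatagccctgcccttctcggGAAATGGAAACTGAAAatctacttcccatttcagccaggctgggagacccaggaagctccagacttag
Oas3 promoter, chr5:120777610-120777909, minus strand: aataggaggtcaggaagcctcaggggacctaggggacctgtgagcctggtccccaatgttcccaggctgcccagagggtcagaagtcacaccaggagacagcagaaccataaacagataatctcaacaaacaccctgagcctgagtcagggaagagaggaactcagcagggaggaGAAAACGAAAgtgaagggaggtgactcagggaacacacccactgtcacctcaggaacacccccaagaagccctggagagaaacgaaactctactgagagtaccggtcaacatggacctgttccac
Oasl1 promoter, chr5:114922990-114923289, plus strand: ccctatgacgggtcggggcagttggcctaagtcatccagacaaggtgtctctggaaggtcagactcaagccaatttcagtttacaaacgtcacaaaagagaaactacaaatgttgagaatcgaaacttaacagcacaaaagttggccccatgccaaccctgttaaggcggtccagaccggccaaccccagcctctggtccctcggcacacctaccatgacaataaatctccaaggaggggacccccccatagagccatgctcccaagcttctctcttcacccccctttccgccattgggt
Oasl2 promoter, chr5:114896684-114896983, plus strand: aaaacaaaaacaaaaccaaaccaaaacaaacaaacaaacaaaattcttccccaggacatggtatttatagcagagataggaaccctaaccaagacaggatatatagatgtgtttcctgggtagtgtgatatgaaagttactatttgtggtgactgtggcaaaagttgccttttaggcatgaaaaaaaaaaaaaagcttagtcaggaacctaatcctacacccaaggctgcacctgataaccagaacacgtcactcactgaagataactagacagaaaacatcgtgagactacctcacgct
Oas1a held 2 overlapping matches, the first at -20 to -11 and the second at -14 to -5 from the start site. Its paralogue Oas1g held the same pair at -18 to -9 and -12 to -3. Among paralogues whose windows are not printed, Oas1c, which did not pass the filter on low values, held 2 overlapping matches, at -114 to -105 and -108 to -99. Oas1f and Oas1h held 0. Oas3 held 1 match at -75 to -66. These letters were not in the windows of Oasl1 and Oasl2. Of 32851 promoter windows of this length, 1131 (3.44%) held the core. A GAS core (TTCNNNGAA, another interferon element) was found in Oas1a alone among the 5 printed windows, at -98 to -90, and in 8.30% of all windows. An NF-kB core (GGGA, any base, TTTCC) was in none of the 5 and in 0.411% of all windows. A match is a description of letters and not of binding.

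Levels are given as CPM, the share of a gene among the UMIs of a cell on a fixed scale that makes all genes of a cell sum to 1000000, averaged over the Pecam1 > 0 cells of a library. The libraries held 601 to 1529 such cells with 7451522 to 16338968 UMIs. Replicate 1 of implanted cGAMP was the shallowest, with a median of 3049 UMIs per cell against 9523 to 14707.5 elsewhere. At least 2 of 7 endothelial markers were found in 98.4% to 99.9% of the cells. Many of the same cells also carried at least 2 markers of another list. For epithelial markers this held for 16.2% to 54.9% of the cells of a library, and for mural markers for 1.37% to 19.0%. For immune markers it was 0.499% to 11.8%, and for fibroblast markers 0.365% to 7.91%. Markers of other cells were also read. Summed over 8 immune markers, the level was 16.4 to 16.9 CPM in spontaneous PBS, 33.9 to 42.3 in spontaneous cGAMP, 13.4 to 28.1 in implanted PBS and 71.7 to 255 in implanted cGAMP, so these transcripts moved with the injection. Summed over 6 mural markers it was 65.8 to 366, 520 to 599, 27.2 to 53.6 and 98.5 to 100 CPM in the same order. Over 5 fibroblast markers it was 12.5 to 68.8, 64.5 to 88.5, 12.1 to 18.8 and 44.2 to 53.6 CPM, and over 7 epithelial markers 363 to 492, 403 to 496, 174 to 214 and 86.3 to 713 CPM. None of these markers was at 0 in all libraries of a group. Their part in the members' levels was not tested beyond the fit without cells that carry 2 markers of such a list, in which all 5 members were still called in both models. That fit leaves out up to 54.9% of the cells of a library by the epithelial markers alone. Of all barcodes, 7 were found in more than 1 library, with at most 3 shared by a pair of libraries.

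After cGAMP all 5 members were higher than after PBS in both tumour models, and no cGAMP library overlapped a PBS library of its model in any member. How many of all genes lack such overlap was not counted, so the lack of overlap is a description. Fold changes are log2 differences of mean CPM + 1 with their SE, tested with limma across all genes and adjusted by Benjamini-Hochberg, and a gene under an adjusted p of 0.05 was called. In spontaneous tumours 5 of 5 members were called higher, where 5.09% of all 10424 genes tested were called higher. In implanted tumours 5 of 5 were called higher, where 8.6% of all genes were. Scaling moved the balance of all genes but not these calls. Per cell total, 531 genes were higher and 791 lower in spontaneous tumours and 896 and 1713 in implanted tumours, whereas by median-of-ratios scaling they were 666 and 340, and 1175 and 1112. Between the models the counts were 353 and 463 after PBS and 545 and 889 after cGAMP, against 509 and 242, and 759 and 540. The median log2 response of the members was 3.78 in spontaneous and 3.21 in implanted tumours, beside -0.10 and -0.10 for all genes tested.

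Oasl1, the translational brake on IRF7, stood at 2.03 and 1.90 CPM in the spontaneous PBS libraries and at 108 and 107 CPM after cGAMP. In implanted tumours it stood at 10.3 and 7.49 CPM after PBS and at 185 and 190 CPM after cGAMP. The replicates lay close together in every group, and the 4 groups did not overlap. The log2 response was 5.19 ± 0.14 with spontaneous tumours (limma, adjusted p = 1.9e-07) and 4.26 ± 0.14 with implanted ones (adjusted p = 5.9e-07). In summed UMIs, 40 became 2482 in spontaneous and 304 became 4766 in implanted tumours, so that its share of UMIs rose 52.7-fold (95% interval 38.6 to 73.9) in the former and by a fold with an interval of 17.8 to 22.5 in the latter. These intervals cover counting error alone.

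Oasl2, the enzymatically active OAS-like gene, stood at 15.0 and 23.9 CPM in spontaneous PBS and at 286 and 292 CPM in spontaneous cGAMP. In implanted tumours it was at 61.7 and 45.4 CPM after PBS and at 290 and 294 CPM after cGAMP. The cGAMP libraries of both models thus overlapped, whereas the PBS libraries did not. The log2 response was 3.86 ± 0.19 with spontaneous tumours (limma, adjusted p = 1.5e-06) and 2.44 ± 0.19 with implanted ones (adjusted p = 4.2e-05).

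Oas1a, a murine counterpart of human OAS1, was at 6.12 and 4.97 CPM in spontaneous PBS and at 76.1 and 75.7 CPM in spontaneous cGAMP. It was at 28.2 and 19.2 CPM in implanted PBS and at 115 and 172 CPM in implanted cGAMP. The lowest values were those of spontaneous PBS, and no groups overlapped. The log2 response was 3.56 ± 0.21 (limma, adjusted p = 4.3e-06) in spontaneous and 2.55 ± 0.21 (adjusted p = 5.5e-05) in implanted tumours.

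Oas2, a synthetase with a duplicated synthetase domain, was at 2.95 and 1.06 CPM in spontaneous PBS and at 38.2 and 31.7 CPM in spontaneous cGAMP. In implanted tumours it was at 5.87 and 4.05 CPM after PBS and at 48.0 and 59.7 CPM after cGAMP. The log2 response was 3.65 ± 0.29 (limma, adjusted p = 3.4e-05) in spontaneous and 3.21 ± 0.29 (adjusted p = 9.1e-05) in implanted tumours.

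Oas3, the longest synthetase, was nearly absent after PBS. It stood at 0 and 0.37 CPM in spontaneous PBS, which is 2 UMIs in all, and at 17.5 and 12.9 CPM (394 UMIs) after cGAMP. In implanted tumours it was at 0.90 and 0.16 CPM (21 UMIs) after PBS and at 30.3 and 38.6 CPM (949 UMIs) after cGAMP. The PBS libraries of both models overlapped. The log2 response was 3.78 ± 0.34 (limma, adjusted p = 7e-05) in spontaneous and 4.57 ± 0.34 (adjusted p = 2.9e-05) in implanted tumours. The pseudocount holds these values down for a gene so low, and they ranged over the alternatives from 1.96 to 4.56 and from 2.83 to 5.18. In shares of UMIs the rise was 167-fold (counting interval 46.0 to 1385) in spontaneous and 57.6-fold (37.5 to 93.5) in implanted tumours.

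**Figure D1:**
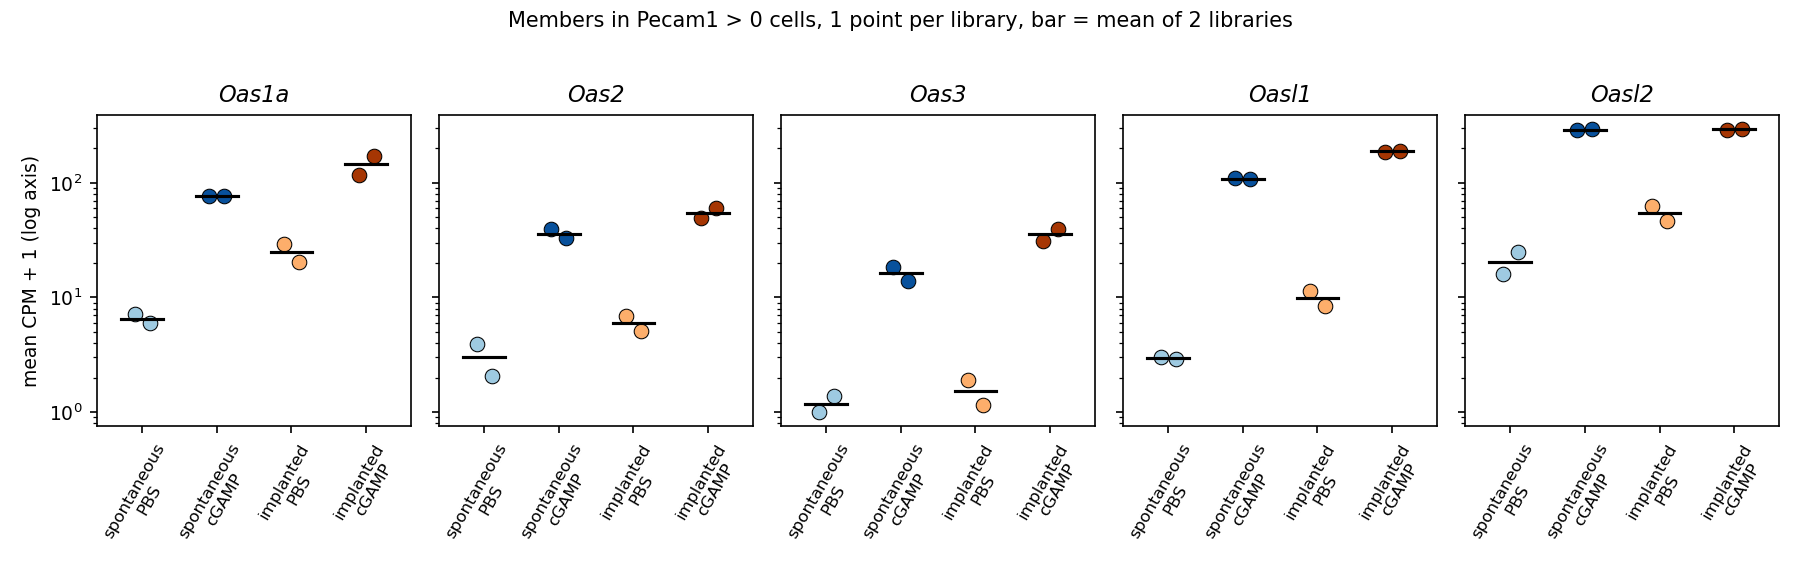
Level of each member in the Pecam1 > 0 cells of the 8 libraries, as mean CPM + 1 on a log axis, with 1 point per library and a bar at the mean of the 2 libraries of a group. All cGAMP libraries sit above the PBS libraries of their model, and Oasl2 reaches 286 to 294 CPM after cGAMP in both models.

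The order of the group means was the same for every member, from spontaneous PBS through implanted PBS and spontaneous cGAMP to implanted cGAMP. Neighbouring groups overlapped for 1 pair in Oas3 (both PBS groups) and 1 pair in Oasl2 (both cGAMP groups). Leaving out any 1 library, or changing the filter, pseudocount, scaling or cells, left all 5 members called in both models, which is 95 of 95 pairs of a member and an alternative per model, with a highest adjusted p of 0.0036 in spontaneous and 0.0026 in implanted tumours.

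Without the agonist, implanted tumours already had more of 3 members. After PBS, Oas1a, Oasl1 and Oasl2 passed the test as higher in implanted tumours (3 of 5 members, where 3.39% of all genes were called higher). The log2 difference was 1.90 ± 0.21 for Oas1a (limma, adjusted p = 0.00095), 1.73 ± 0.14 for Oasl1 (adjusted p = 0.00022) and 1.44 ± 0.19 for Oasl2 (adjusted p = 0.0025). As group means, Oas1a was at 23.7 ± 6.39 CPM (SD, n = 2 libraries) against 5.55 ± 0.815 CPM, Oasl1 at 8.91 ± 2.01 against 1.97 ± 0.0915 CPM and Oasl2 at 53.6 ± 11.5 against 19.4 ± 6.32 CPM. Oas2 (1.05 ± 0.29, adjusted p = 0.061) and Oas3 (0.34 ± 0.34, adjusted p = 0.58) did not pass the test by limma. The 3 calls held in all 19 alternatives, while Oas2 was called in 5 of them, among them the fits without replicate 1 of spontaneous PBS (adjusted p = 0.014) and without replicate 1 of implanted cGAMP (adjusted p = 0.049). Between these PBS groups the summed immune and fibroblast markers overlapped, whereas the epithelial (363 to 492 against 174 to 214 CPM) and mural markers (65.8 to 366 against 27.2 to 53.6 CPM) were higher in spontaneous tumours. Their part in the difference was not tested.

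After cGAMP, Oasl1 (log2 difference 0.80 ± 0.14, limma, adjusted p = 0.0089) and Oas1a (0.88 ± 0.21, adjusted p = 0.026) were called higher in implanted tumours, 2 of 5 members where 5.23% of all genes were called higher. Oas3 was at 34.4 ± 5.92 CPM in implanted and 15.2 ± 3.27 CPM in spontaneous tumours, a difference of 1.13 ± 0.34 that did not pass the test (limma, adjusted p = 0.053), and it was called in 9 of 19 alternatives. Oas2 differed by 0.61 ± 0.29 (limma, adjusted p = 0.20) and was called in none of the 19. Oasl2 differed by 0.01 ± 0.19 (95% interval -0.42 to 0.45), at 292 ± 2.71 against 289 ± 4.39 CPM. Without either spontaneous cGAMP library, neither was called, although the differences stayed at 0.81 and 0.78 for Oasl1 (adjusted p = 0.056 and 0.085) and at 0.89 and 0.88 for Oas1a (adjusted p = 0.11 and 0.14). Without replicate 2 of implanted cGAMP, Oas1a differed by 0.60 ± 0.21 and was not called (adjusted p = 0.09). Without cells that carry 2 markers of another cell type, Oasl1 differed by 0.63 ± 0.23 and was not called (adjusted p = 0.11). Immune markers were 71.7 to 255 CPM in implanted and 33.9 to 42.3 CPM in spontaneous cGAMP libraries.

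The difference of the responses, implanted minus spontaneous, was called for 0 of 5 members by limma, where 0.662% of all genes were called in either direction. Without adjustment, 3 of the 5 members had a p under 0.05, as did 1400 of all 10424 genes. The difference was -1.43 ± 0.27 for Oasl2 (limma, adjusted p = 0.058), -0.93 ± 0.20 for Oasl1 (adjusted p = 0.088) and -1.01 ± 0.30 for Oas1a (adjusted p = 0.19), a smaller fold in implanted tumours, while Oas2 (-0.44 ± 0.41) and Oas3 (0.79 ± 0.47) had intervals that span 0. Oasl2 was called in 6 of 19 alternatives (adjusted p from 0.0086 to 0.31 over the 19), among them the fits without replicate 2 of implanted PBS (0.04) and without replicate 2 of spontaneous PBS (0.036). Oasl1 was called in 1 alternative, without replicate 2 of implanted PBS (adjusted p = 0.023). For Oasl2, the implanted level was higher by 1.44 after PBS and by 0.01 after cGAMP.

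**Figure D2:**
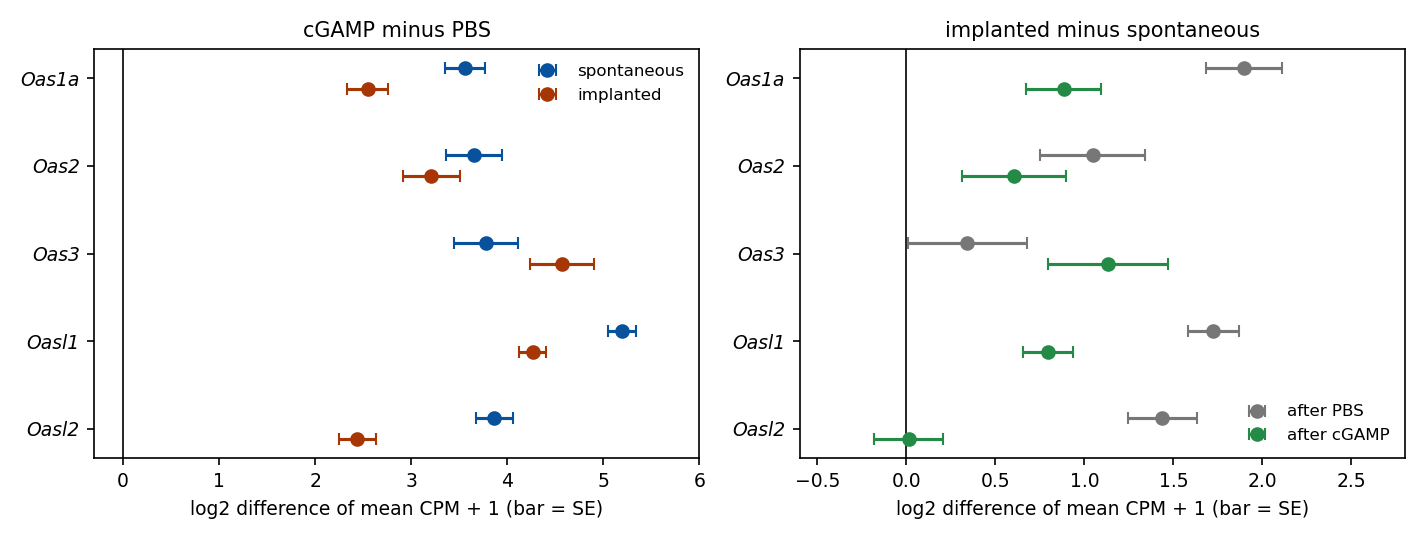
Log2 differences of mean CPM + 1 with SE for each member, cGAMP minus PBS in each model (left) and implanted minus spontaneous after each injection (right). Responses lie between 2.44 and 5.19, and the implanted excess of Oasl2 falls from 1.44 after PBS to 0.01 after cGAMP.

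Ratios between members were taken for 5 pairs, of which 3 separated all cGAMP from all PBS libraries. The ratio of Oasl1 to Oasl2 CPM, which is read for its change between libraries and not as a comparison of transcript numbers, was 0.136 and 0.0797 in spontaneous PBS and 0.167 and 0.165 in implanted PBS. After cGAMP it was 0.379 and 0.365 in spontaneous and 0.639 and 0.647 in implanted tumours, above all PBS libraries and without overlap between the models. The ratio of Oasl1 to Oas1a was 0.332 to 0.391 over the 4 PBS libraries and 1.11 to 1.60 over the 4 cGAMP libraries. That of Oas3 to Oasl2 was 0 to 0.0154 and 0.0441 to 0.132. The ratios of Oas1a to Oasl2 (0.208 to 0.457 after PBS and 0.259 to 0.585 after cGAMP) and of Oas2 to Oasl2 (0.0443 to 0.197 and 0.109 to 0.203) overlapped.

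In single cells the members were sparse after PBS and common after cGAMP. Each cell was thinned to 2000 UMIs so that depth did not set the share, which left out 580 cells of replicate 1 of implanted cGAMP and 22 to 102 of the other libraries. A UMI of any member was found in 5.10% and 4.51% of cells in spontaneous PBS and in 59.0% and 59.4% in spontaneous cGAMP. In implanted tumours it was found in 16.8% and 13.0% after PBS and in 65.2% and 68.3% after cGAMP. At full depth the shares were 17.6% and 18.3%, 91.5% and 89.5%, 51.1% and 43.3%, and 76.3% and 91.7% in the same order of groups, the 76.3% being the shallow library. The kept cells had median depths before thinning of 9861 to 15502 UMIs. No cell type here is known to lack these genes, and the part of free RNA in the shares was not tested.

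Oasl2 was the member most often found, in 39.2% and 43.1% of thinned cells of spontaneous cGAMP and in 41.7% and 43.9% of implanted cGAMP, from 2.78% and 3.07% and from 10.3% and 8.28% after PBS. Oas3 was found in 2.93% and 1.87% and in 5.48% and 5.13% of the thinned cGAMP cells, and in at most 0.11% of cells of any PBS library. Exactly 2 members were found in 0.181% to 0.232% of thinned cells in spontaneous PBS and in 0.292% to 1.76% in implanted PBS. After cGAMP they were found in 14.8% to 15.0% of cells in spontaneous cGAMP and 19.5% to 21.1% in implanted cGAMP, and exactly 3 in 2.62% to 3.12% and 5.69% to 8.50%. All 5 were found in at most 0.211% of the cells of a library. For ordered pairs of members, the share of thinned cells with the second was compared between cells with and without the first. It was higher with the first, without overlap between libraries, for 11 of 20 pairs in implanted cGAMP and for 9 of 16 in spontaneous cGAMP. The other pairs of these groups overlapped. In implanted PBS it was higher for 0 of 8 pairs and lower for 1. In spontaneous PBS, where replicate 1 alone had enough cells, it was higher for 1 of 4 and lower for 2. Both orders of a pair come from the same cells, and the share over other pairs of genes was not taken, so these counts are a description. In implanted cGAMP, 50.4% to 52.5% of the thinned cells with an Oasl1 UMI also had one of Oasl2, against 39.0% to 41.1% of those without. In spontaneous cGAMP the shares were 42.2% to 48.4% against 38.5% to 42.1%. For Oas2 and Oasl2 in implanted cGAMP they overlapped, 35.7% to 44.0% against 42.3% to 43.9%.

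**Figure D3:**
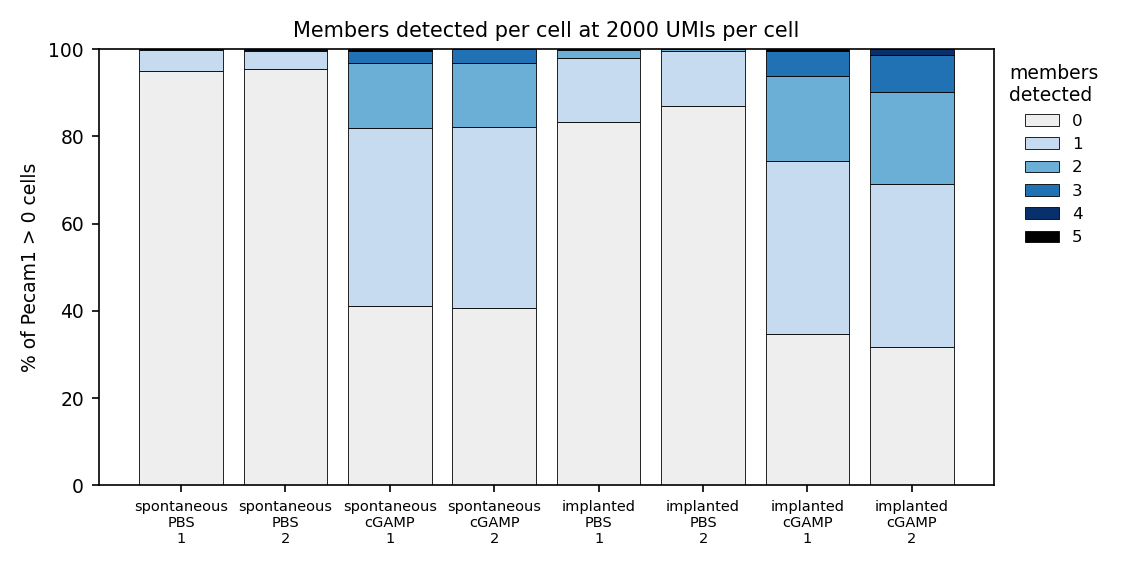
Share of Pecam1 > 0 cells of each library by the number of members detected after thinning to 2000 UMIs per cell (stacked bars, in %). Cells with no member make up 94.9% to 95.5% in spontaneous PBS and 31.7% to 34.8% in implanted cGAMP.

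Vessel types were separated by marker genes. A cell was put into a class when it carried at least 2 markers of that class and more than of any other, which gave 1074 arterial cells (Gja5, Gja4, Sema3g and others), 493 tip-like cells (Pgf, Apln, Esm1 and others), 1541 stalk-like, postcapillary venous cells (Ackr1, Selp, Lrg1 and others) and 2112 AQP7+ capillary cells (Aqp7, Fabp4, Cd36 and others). A further 218 proliferative and 259 lymphatic cells were too few in some libraries for a test. Of the rest, 1092 cells were tied between classes and 370 had at most 1 marker of any class. Of the cells in a class, 2186 led by 1 marker. The log2 difference between a class and the other Pecam1 > 0 cells of the same library was averaged over the 4 libraries of an injection, and tested with limma over 10364 genes, the markers left out.

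After PBS, Oas1a, Oas2 and Oasl1 were higher in arterial and lower in stalk-like cells than in the other cells, whereas Oasl2 and Oas3 passed the test in neither. For Oasl2 in stalk-like cells this depended on the setting. It was called lower with a pseudocount of 5 CPM (log2 difference -0.42, limma, adjusted p = 0.047) and in cells with at least 2000 UMIs (-0.48, adjusted p = 0.037). Without replicate 1 of spontaneous PBS its difference was -0.74. In arterial cells 3 of 5 members were called, all higher, where 20.8% of all genes were called in either direction. They were Oas2 (log2 difference 1.85 ± 0.24, limma, adjusted p = 0.0026), Oasl1 (0.95 ± 0.15, adjusted p = 0.0056) and Oas1a (0.89 ± 0.14, adjusted p = 0.0059). Oas2 stood at 16.6 and 4.74 CPM in arterial cells of spontaneous PBS (23 UMIs). In those of implanted PBS it stood at 10.8 and 6.94 CPM (55 UMIs). In AQP7+ cells of the same groups it stood at 0 and 0 and at 8.92 and 4.26 CPM. Its arterial values were thus above the AQP7+ values of the same library in all 4 PBS libraries. In stalk-like cells 3 of 5 were called, all lower, where 21.6% of all genes were called, and they were Oas1a (-1.79 ± 0.27, adjusted p = 0.0045), Oasl1 (-1.63 ± 0.18, adjusted p = 0.0016) and Oas2 (-1.28 ± 0.21, adjusted p = 0.0066, all by limma). Oas1a stood there at 2.83 and 0 CPM in spontaneous PBS and at 10.2 and 6.79 CPM in implanted PBS, below the arterial cells in each library (17.4, 9.46, 33.7 and 24.4 CPM). Stalk-like cells held 6, 3 and 4 UMIs of Oas1a, Oas2 and Oasl1 in spontaneous PBS and 69, 16 and 19 in implanted PBS. The sizes of these log2 differences thus rest on few UMIs. In tip-like cells Oas1a alone was called, higher (0.98 ± 0.22, limma, adjusted p = 0.028), where 13.8% of all genes were called, so this count lies near that share. In AQP7+ cells no member was called by limma, where 7.9% of all genes were, though Oas2 and Oas1a had an unadjusted p under 0.05 (-0.75 ± 0.22 and -0.42 ± 0.14). So did 2127 of all 10364 genes.

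After cGAMP, Oas2 was called higher in arterial cells (0.95 ± 0.24, limma, adjusted p = 0.035, 1 of 5 members where 19.6% of all genes were called) and lower in stalk-like cells (-1.13 ± 0.21, adjusted p = 0.017, 1 of 5 where 13.8% were called). A count of 1 of 5 lies near the share of all genes in both classes, so it does not set the members apart. Oas2 stood at 89.1 and 58.3 CPM in arterial and at 27.1 and 15.5 CPM in stalk-like cells of spontaneous cGAMP. In implanted cGAMP it stood at 78.0 and 81.8 CPM in arterial and at 16.6 and 30.8 CPM in stalk-like cells, so the classes did not overlap in either model. How many of all genes keep these classes apart was not counted. In tip-like cells no member was called by limma, where 7.42% of all genes were called, though Oas3 (0.81 ± 0.23, adjusted p = 0.073) and Oasl1 (0.68 ± 0.24, adjusted p = 0.13) had an unadjusted p under 0.05. So did 2598 of all 10364 genes. In AQP7+ cells none was called by limma, where 4.71% of all genes were, and none had an unadjusted p under 0.05. Of all 10364 genes, 2275 had one. With a pseudocount of 5 CPM, 7 pairs of a member and a class were called after cGAMP in place of 2. Among those gained, Oas1a (-0.80) and Oasl1 (-0.56) in stalk-like cells and Oas3 (-0.50) in arterial cells were lower. Oas3 (0.71) and Oasl1 (0.67) in tip-like cells were higher. At this pseudocount 793 to 2250 of 10364 genes per class were called, against 488 to 2031 in the main fit. Whether the class differences changed with the injection was not tested.

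Each of the 4 tested classes held transcripts of all 5 members in every cGAMP library. In stalk-like cells Oasl1 was at 71.6 and 81.2 CPM in spontaneous and at 118 and 152 CPM in implanted cGAMP, from at most 2.66 CPM in any PBS library. In tip-like cells Oasl1 was at 166 and 163 CPM and at 246 and 330 CPM. Oasl2 lay within 237 to 398 CPM in all 4 tested classes and all 4 cGAMP libraries. Whether the responses themselves differed between classes was not tested. Without either library of spontaneous cGAMP or of implanted cGAMP the arterial call of Oas2 after cGAMP was lost (adjusted p from 0.077 to 0.14), and it was also lost without either implanted PBS library (0.066 and 0.066). Its stalk-like call ended without the first implanted cGAMP library (0.062) and without either spontaneous cGAMP library (0.06 and 0.095). The tip-like call of Oas1a after PBS was lost without replicate 1 of implanted PBS (0.13), without replicate 2 of spontaneous PBS (0.082) and without any 1 cGAMP library (0.0503 to 0.0517), and those of Oasl1 in arterial cells without replicate 2 of implanted PBS (0.051) and of Oas2 in stalk-like cells without replicate 1 of implanted PBS (0.051).

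**Figure D4:**
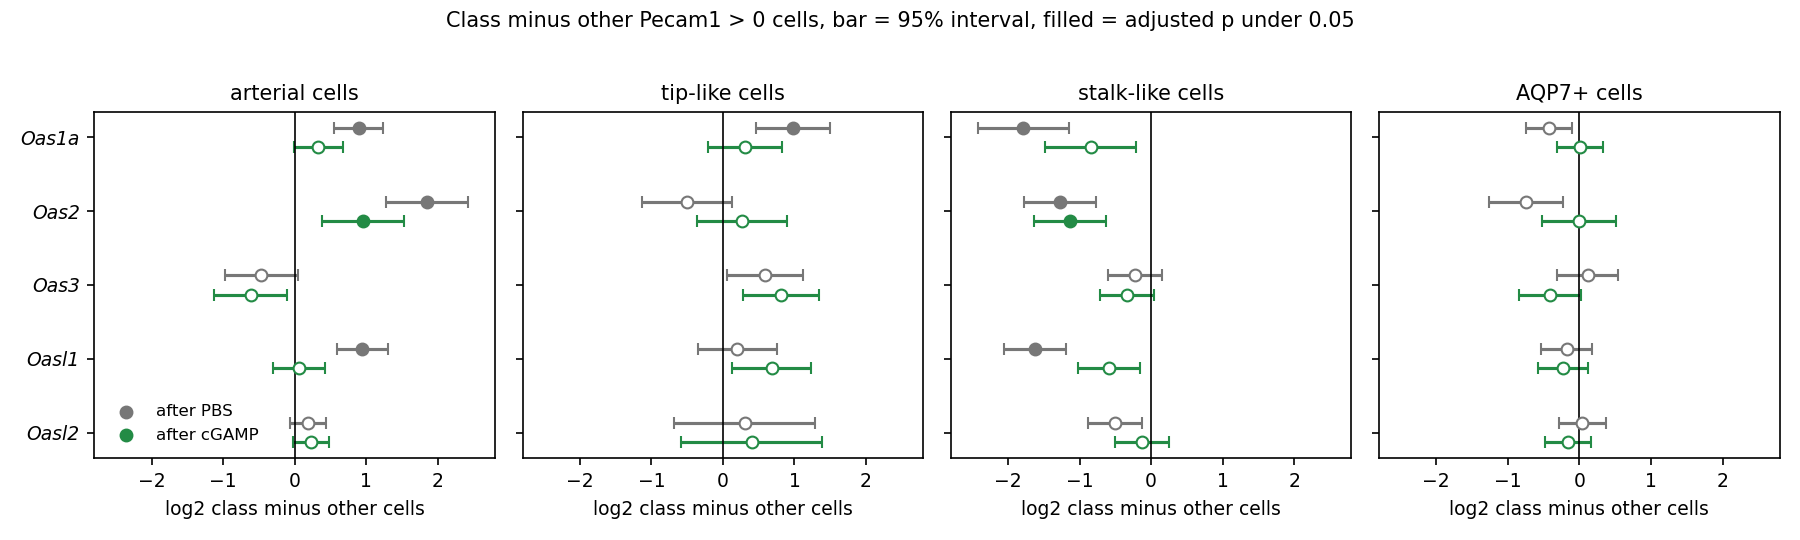
Log2 difference in mean CPM + 1 between the cells of a vessel class and the other Pecam1 > 0 cells of the same library, with 95% intervals, after PBS (grey) and after cGAMP (green). Filled points passed an adjusted p of 0.05, which were 7 of 20 member and class pairs after PBS and 2 of 20 after cGAMP. Of all genes, 7.9% to 21.6% were called per class after PBS and 4.71% to 19.6% after cGAMP.

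In classes too small to test, the values went as follows. Lymphatic cells (15 to 114 per library) had a mean of 3.68 CPM of Oas1a after PBS and 72.7 CPM after cGAMP in spontaneous tumours, and 23.5 and 109 CPM in implanted tumours. The value of 3.68 CPM is 1 UMI in 35 cells, and the other members had 0 UMIs in those cells. Proliferative cells fell to 2 to 10 per library after cGAMP, so their levels there rest on few cells.

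Of 7 listed Oas1 paralogues only Oas1g was tested, and it went the same way. It had 0 UMIs in both spontaneous PBS libraries and 9.72 and 6.99 CPM (183 UMIs) after cGAMP, at least 51.8-fold higher when the group without a UMI is set to the limit of 3. In implanted tumours it rose from 1.42 and 1.34 CPM to 19.4 and 26.1 CPM (log2 response 3.30 ± 0.30, limma, adjusted p = 9.4e-05). Between the models it was higher in implanted tumours, by 1.25 ± 0.30 with PBS (limma, adjusted p = 0.038) and by 1.35 ± 0.30 with cGAMP (adjusted p = 0.021). Neither of these 2 calls held without either library of the cGAMP spontaneous group (adjusted p = 0.07 and 0.066, and 0.065 and 0.17). Of the runs of 31 bases in the last 500 bases of the Oas1a transcript, 70% also occur in Oas1g, and 45.1% of those of Oas1g occur in Oas1a. How reads that fit both genes were counted is not given in the sources used here, so the levels of Oas1a and Oas1g are uncertain, as is their separation. For Oas3, 28.1% of such runs occur in other genes, and for Oas2, Oasl1 and Oasl2 none do. Oas1c, Oas1d and Oas1e did not pass the filter on low values, and Oas1b, Oas1f and Oas1h are not listed in the tables. For Oas1c the share of UMIs after cGAMP was 1.83-fold that after PBS in spontaneous tumours (counting interval 1.24 to 2.75). In implanted tumours it was 1.31-fold (0.989 to 1.74).

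Genes around the synthetic step were read next. Abce1, an ATP-binding protein of ribosome recycling, had log2 responses of -0.42 ± 0.12 (limma, adjusted p = 0.055) and -0.08 ± 0.12 (adjusted p = 0.70). Pde12, a phosphodiesterase that degrades 2-5A, fell by 0.68 on the log2 scale in implanted tumours (SE 0.13, limma, adjusted p = 0.005), from 26.4 and 30.6 CPM to 17.1 and 17.7 CPM. In spontaneous tumours its response was -0.13 ± 0.13 (adjusted p = 0.57). The fall was not called without replicate 2 of implanted PBS (adjusted p = 0.054).

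Around the members, genes that sense RNA and those that carry the interferon signal rose in part. The list of RNA-sensing genes held 8 names, with Ddx58 also under its other name Rigi, and 7 were tested. Of these, 6 rose in each model, where 5.09% and 8.6% of all genes were called higher. The median log2 response of the 7 was 1.64 in spontaneous and 1.46 in implanted tumours. Zbp1, a sensor of Z-form nucleic acid, had the largest response (5.11 ± 0.23 and 2.43 ± 0.23), and Ddx58, which encodes RIG-I, the smallest called one (1.44 ± 0.11 and 1.20 ± 0.11). All 8 listed genes of the interferon receptor and its signal were tested, of which 4 rose in each model and 1 fell in implanted tumours. Their median log2 response was 1.03 in spontaneous and 0.56 in implanted tumours. Among them Usp18, a brake on the receptor, had the largest response (3.96 ± 0.22 and 3.45 ± 0.22). Irf9, a transcription factor of the pathway, had the smallest called response in spontaneous tumours (1.72 ± 0.09), and in implanted tumours that was Ifnar1, a chain of the receptor, which fell by 0.53 (SE 0.13, limma, adjusted p = 0.017). The list of the STING pathway held 9 names, with Mb21d1 also under Cgas and Tmem173 also under Sting1. Of these names 6 were tested, and Ikbke did not pass the filter. Of the 6, 2 rose in spontaneous and 4 in implanted tumours, beside the same shares of all genes (medians 0.30 and 0.54). Irf7, the transcription factor whose translation OASL1 limits, had the largest response (5.85 ± 0.19 and 4.12 ± 0.19). Ifi204 was the other called gene in spontaneous tumours (2.38 ± 0.13), and Tmem173, the gene of STING, had the smallest called response in implanted tumours (0.41 ± 0.13, limma, adjusted p = 0.041). None of the 12 listed interferon genes passed the filter, and only Ifnb1, Ifne, Ifnk and Ifng were among the genes of the libraries at all. Ifnb1 had 0 UMIs in 6 libraries, 1 in replicate 1 and 15 in replicate 2 of implanted cGAMP, all 15 in 1 cell.

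The genes whose level over the 8 libraries was most like the mean of the 5 standardised members were Ifih1, an RNA sensor (Pearson r = 0.998), Bst2, Phf11b, Ddx60, Trafd1 and Lgals3bp (each 0.998). The 8 points share the 4 groups and fall into PBS and cGAMP sets, so r describes this split, and 205 of 10419 genes had an r of at least 0.95.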

How the data were processed

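Sorted tumour ECs were profiled with 10x Chromium 3′ v3 chemistry. Per the submitters' processing notes and the methods, the authors used Cell Ranger 3.0.0, Seurat 3.1.1 and the mm10 build, removed cells with fewer than 500 genes or over 10% mitochondrial transcripts and genes in fewer than 3 cells, and deposited natural log values per cell, ln(1 + UMIs × 10000 / total UMIs). How the deposited cells were chosen is not settled. UMIs were worked back from the steps of each cell, and 100% of values came out whole within 0.01. No doublet caller was run.

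CPM was averaged over the Pecam1 > 0 cells of each library. One limma fit (version 3.58.1, R 4.3.3, empirical Bayes with a mean trend) on log2(CPM + 1) held all 8 libraries and 5 comparisons. A gene entered where 2 or more libraries reached 5 CPM. P-values were adjusted by Benjamini-Hochberg over all genes tested. No count model was used. P-values rest on the spread between the 2 libraries of a group, pooled over the 4 groups and moderated over all genes. They do not measure the spread of the compared groups alone. Replicates differed by more than sampling noise (chi-square per degree of freedom 4.07 to 11.4). Shares were taken after drawing 2000 UMIs per cell once. Columns without a sample numbered 0.

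Named were all members, Abce1, Pde12, tested Oas1 paralogues, the called genes with the largest and smallest response of each other list in each model, and the 6 genes most correlated with the members. Some genes of the lists are not reported here. Members and lists were chosen with earlier results of these data known. Python 3.11.15, numpy 2.4.6, scipy 1.17.1 and pandas 2.3.3 were used. Alternatives changed the filter, pseudocount, scaling, block, cells and class rule, and left out each library.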

Additional observations from a re-analysis of the deposited data

Results flagged for a closer look

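For 3 of the genes named beside the members, the response differed between the models by the test of the difference itself (limma, implanted minus spontaneous). The difference was -1.72 ± 0.26 on the log2 scale for Irf7 (adjusted p = 0.029), -2.68 ± 0.33 for Zbp1 (adjusted p = 0.021) and -0.91 ± 0.13 for Irf9 (adjusted p = 0.024), and none of the 3 was called without the filter on low values (adjusted p = 0.18, 0.15 and 0.15) or without either spontaneous cGAMP library.

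Member transcripts were also read in the cells without a Pecam1 UMI, which the comparisons leave out. At 1000 UMIs per cell, a UMI of any member was found in 29.3% to 30.6% of such cells in spontaneous cGAMP and in 42.1% to 46.5% in implanted cGAMP, against 0% to 1.64% and 5.13% to 6.25% in the PBS libraries. These shares rest on 43 to 302 cells per library. What these cells are, and the part of free RNA, was not tested.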

How the results depend on the processing

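The rise of all 5 members after cGAMP was called in both models under each of the 19 alternatives, and the excess of Oas1a, Oasl1 and Oasl2 in implanted PBS likewise. For the difference of the responses, 1 member (Oasl2) was called without cells that carry 2 markers of another type, in cells with at least 2000 UMIs, with UMIs summed over cells and with the crossed replicate numbers, and 0 to 2 with a library left out. After cGAMP, 1 member was called without the filter or without cells of other types, and 0 to 3 with a library left out. The class differences after cGAMP gave 7 calls with a pseudocount of 5 CPM and 0 to 4 with a library left out. With the pseudocount of 5 CPM, 793 to 2250 of 10364 genes per class were called after cGAMP, against 488 to 2031 in the main fit. In AQP7+ cells after PBS, Oas1a was called when cells needed 1 marker of the class and none of another (log2 difference -3.67, limma, adjusted p = 0.011), a setting that could be fitted for this class alone.

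Genes called over all genes moved as follows. Without the filter they were 812 (spontaneous response), 0 (difference), 327 (after PBS) and 784 (after cGAMP). Without cells of other types they were 846, 1661 (implanted response), 487 (after PBS) and 792 (after cGAMP). With summed UMIs they were 2839 (spontaneous response), 112 (difference) and 1317 (after PBS), and with all deposited cells the difference gave 43. Leaving out a library gave 448 to 1808 and 1265 to 2495 for the responses, 2 to 171 for the difference, 212 to 1234 after PBS and 156 to 1447 after cGAMP.

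Values near 0 changed sign. The Oas2 difference became 0.040 with a pseudocount of 5 CPM, and ranged from -0.91 to 0.029 with a library left out. Oas3 after PBS ranged from -0.015 to 0.70 and Oasl2 after cGAMP from -0.0035 to 0.027. The response of Abce1 in implanted tumours was 0.018 with median-of-ratios scaling and ranged from -0.25 to 0.095. The cause of these changes was not tested.

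The group means of cells with any member were 2.24%, 37.2%, 8.05% and 45.3% at 1000 UMIs per cell (spontaneous PBS and cGAMP, implanted PBS and cGAMP) and 18.0%, 90.5%, 47.2% and 84.0% at full depth.

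The replicate numbers did not pair the samples (correlations of deviations from -0.22 to 0.13). With the replicate number as a block, 1230, 2524, 58, 741 and 1362 genes were called in the 5 comparisons and the number of members called did not move. With the numbers of spontaneous PBS crossed, a pairing added after the data were seen, they were 1253, 2516, 82, 778 and 1363. With 2 libraries per group, a low member such as Oas3 after PBS rests on few UMIs, and small differences between the models cannot be seen.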
